A study of Caenorhabditis elegans with 12 samples.

Results

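The constant effect of the atfs-1 genotype was measured over all 12 of the 12 arrays in the series, 6 from worms carrying the allele atfs-1(tm4525) and 6 from wild-type worms. Worms of each genotype were fed bacteria for RNAi, either against spg-7 or as a control, which makes 4 groups of 3 biological replicates. Wild type is the strain N2, and the labels give N2 as the genetic background. All worms came from cultures synchronised by bleaching, grown in liquid and collected at L4, the last larval stage before adulthood. RNA was taken from the whole animal, so fewer cells of a type and less RNA per cell cannot be told apart in any value below. All arrays entered by their labels, no array was chosen by a measured value, and 10385 genes were tested, each through the brightest of its probe sets that carry 1 gene name. The difference given for a gene is the log2 signal in the mutant minus that in wild type, with the RNAi treatment as a covariate and its standard error (SE) from limma. A gene is called where its Benjamini-Hochberg adjusted p over all 10385 genes was under 0.05.

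ATFS-1 is a bZIP transcription factor that carries both a mitochondrial targeting sequence and a nuclear localisation signal. In healthy animals it is imported into mitochondria and degraded. When import falters it goes to the nucleus and induces chaperones, proteases and other genes of the mitochondrial unfolded protein response. SPG-7 belongs to a protease complex in the inner membrane of mitochondria, and its knockdown is a common way to induce that response in worms. L4 hermaphrodites make sperm in this stage and then switch the germ line to oocytes, so sperm RNA, yolk protein RNA and oocyte RNA each rise at their own time as the worms grow. The comparison asks which genes stood at another level in the mutant whether or not the worms were on spg-7 RNAi.

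The deposited signal is an intensity on a linear scale, and the median log2 signal over all probe sets was 7.12 to 7.31 on the mutant arrays and 6.80 to 7.23 on the wild-type arrays. Between replicates of a group, Pearson's r across probe sets was 0.922 to 0.946 in the mutant and 0.867 to 0.920 in wild type. The signal of spg-7 on control RNAi was 313, 385 and 450 in the mutant and 454, 747 and 1057 in wild type. On arrays labelled spg-7 RNAi it was higher than on any control array, at 9968, 17698 and 26208 in the mutant and 7278, 13442 and 22348 in wild type, so it does not show a knockdown, and directions follow the labels. The number of arrays and the spread between replicates both limit precision.

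With the deposited scaling of the arrays, genes called for the genotype were mostly higher in the mutant. Of the 10385 genes, 308 (2.97%) were called, 292 (2.81%) higher and 16 (0.154%) lower in the mutant. The 292 had a median log2 difference of 1.43 and a range of 0.60 to 4.27, and 274 of them were at least 2-fold and 22 at least 4-fold higher. The 16 had a median of -1.12, and 9 of them were at least 2-fold lower. The median over all tested genes was -0.03. The 6 mutant and 6 wild-type arrays did not overlap for 89 genes (0.857%), 53 (0.51%) of them higher and 36 (0.347%) lower in the mutant, and 46 of the 89 were called.

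The calls lay close to the threshold. The adjusted p ran between 0.0164 and 0.0499 over the 308 genes, and was under 0.03 for 2 of them and under 0.04 for 72. Just inside stood anp-1 (log2 1.13) and F56F4.3 (1.34), both at 0.0499, and just outside txt-1 (1.52) and fbxa-125 (0.96), a hair over 0.05. At an unadjusted p under 0.05 there were 1368 genes higher and 440 lower. With arrays centred on their median these counts were 1071 and 1337, and with scaling to the hybridisation controls 1803 and 40. The balance between directions thus depended on the scaling between arrays. No gene was called when mutant control replicate 1, mutant control replicate 2, mutant spg-7 replicate 1, mutant spg-7 replicate 3 or wild-type spg-7 replicate 1 was left out. The other 7 fits without 1 array called 3 to 664 genes, and all 292 and all 16 kept their direction in all 12 fits. Those genes were called on these same arrays, so the kept direction is no separate support.

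**Figure D1:**
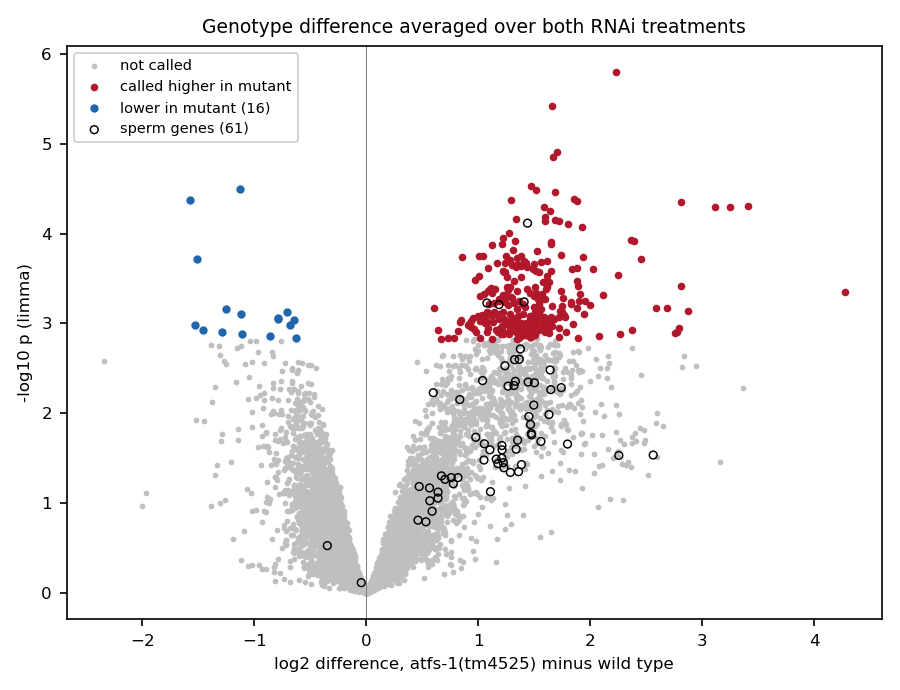
Each point is 1 of the 10385 genes, placed by its log2 difference (mutant minus wild type, with RNAi as a covariate) on the horizontal axis and by -log10 of the unadjusted p from limma on the vertical axis. Genes called at an adjusted p under 0.05 are coloured by direction and the 61 sperm genes are open circles, 4 of them called. Most called genes lie on the right, where the mutant is higher.

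Among called genes whose mutant and wild-type arrays did not overlap, the largest differences were in genes known only by sequence names, in a glucuronosyltransferase and in a cuticle collagen. K02B12.6 had a lowest, median and highest signal of 1659, 2206 and 3572 over the 6 mutant arrays, against 78.2, 145 and 1134 over the 6 wild-type arrays. Every mutant array was above every wild-type array, and the log2 difference was 3.41 ± 0.57 (SE; adjusted p = 0.0313), a 10.6-fold difference. Y39B6A.9 stood at 1016, 2028 and 2747 in the mutant, against 56.2, 145 and 796 in wild type, again with no overlap (3.25 ± 0.54, adjusted p = 0.0313). R01E6.5 stood at 2055, 4015 and 5457 in the mutant, against 184, 268 and 1915 in wild type (3.12 ± 0.52, adjusted p = 0.0313). In these 3 genes the wild-type spread was wide, and every mutant array stood above the highest wild-type array.

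ugt-43, a UDP-glucuronosyltransferase of the family that conjugates small lipophilic compounds, had 549, 725 and 1148 in the mutant, against 36.3, 163 and 320 in wild type (log2 2.45 ± 0.47, adjusted p = 0.0390). col-132, a collagen gene, had 261, 427 and 750 in the mutant, against 38.3, 83.3 and 256 in wild type (2.39 ± 0.44, adjusted p = 0.0390). mab-3, a DM-domain transcription factor of male development that represses yolk protein genes in males, had 103, 199 and 390 in the mutant, against 25.7, 67.98 and 96.4 in wild type. In mab-3 the lowest mutant array was just above the highest wild-type array (1.73 ± 0.37, adjusted p = 0.0458). ptp-5.2, named as a protein tyrosine phosphatase, had 216, 360 and 495 in the mutant, against 50.1, 108 and 185 in wild type (1.72 ± 0.30, adjusted p = 0.0325).

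The smallest adjusted p values were those of F19H6.6 and pph-7. F19H6.6 had a signal of 467, 774 and 1078 in the mutant, against 80.3, 128 and 408 in wild type (log2 2.23 ± 0.27, adjusted p = 0.0164). pph-7, named as a protein phosphatase, had 315, 539 and 632 in the mutant, against 96.0, 179 and 226 in wild type (1.66 ± 0.21, adjusted p = 0.0197). The groups did not overlap in either gene. F19H6.6, pph-7 and F07D3.3 were called in 7 of the 12 fits without 1 array, the most of any gene, against a median of 3 over the 308.

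F07D3.3, at 250, 525 and 721 in the mutant against 41.4, 161 and 237 in wild type, had a log2 difference of 1.88 ± 0.31 (adjusted p = 0.0313). The remaining genes among the 15 with the largest difference and no overlap were F10G2.2 (1.85), D1081.5 (1.75), T10E9.6 (1.72), F25C8.1 (1.69) and W02A2.8 (1.62). By the size of p, Y46H3D.1 (1.70), F49C12.7 (1.67) and mboa-4 (1.47), an O-acyltransferase of the membrane-bound family, also stood at an adjusted p of 0.0313; their arrays overlapped between genotypes.

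**Figure D2:**
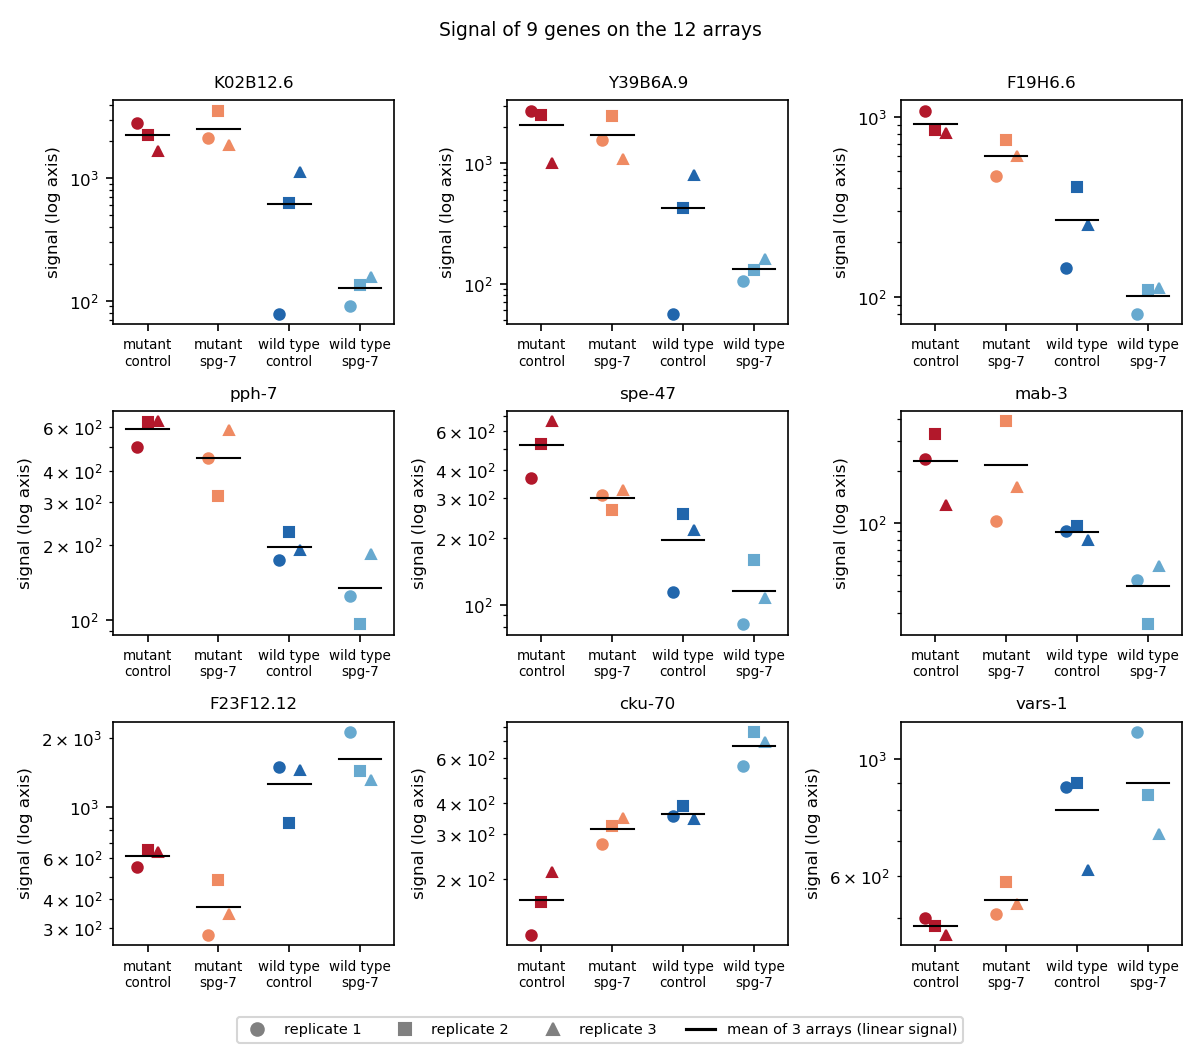
Each panel shows the signal of 1 gene on all 12 arrays on a log axis, by genotype and RNAi treatment, with points for single arrays and bars for the mean of the 3 arrays of a group. The mutant points lie above all wild-type points in K02B12.6, Y39B6A.9, F19H6.6, pph-7, spe-47 and mab-3 and below all of them in F23F12.12 and vars-1, while in cku-70 the ranges touch.

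The largest fitted difference, 4.27 ± 0.91 for scvp-1 (adjusted p = 0.0458), was in a gene whose arrays overlapped, at 148, 638 and 1247 in the mutant against 4.997, 23.4 and 245 in wild type. It and cut-3 were picked after their values were seen. The wild-type mean of scvp-1 lay below the signal of 76.0 under which probe sets were left out, as for 28 of the 292 in all, so the size of such differences rests on dim probe sets. cut-3, a cuticlin of the cuticle, overlapped too, at 141, 930 and 1150 in the mutant against 28.1, 67.1 and 402 in wild type (2.87 ± 0.65, adjusted p = 0.0473).

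Differences of sperm genes were mostly positive, with few members called, and their median level over the arrays did not pass an adjusted exact permutation test (mean difference 1.34, adjusted p = 0.07). The list used here holds genes of the major sperm protein (msp), msd, ssp, sss, gsp-3/gsp-4 and spe families, whose RNA is made in the male germ line and during the sperm-producing phase of hermaphrodites. Of its 61 tested members 4 (6.56%, beside 2.97% of all genes) rose, none fell, and the median difference was 1.22, beside -0.03 over all genes. The difference was positive in 59 of the 61, and 46 had an unadjusted p under 0.05. The msp genes themselves, which encode the cytoskeletal protein that drives the crawling of nematode sperm, had a median of 1.05 over 23 members, all positive, with none called and a smallest adjusted p of 0.116. All 23 were measured through probe sets marked as prone to cross-hybridise, so single msp genes cannot be separated.

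The 4 called sperm genes were spe genes, found through mutants that make defective sperm. spe-47 had a signal of 267, 349 and 663 in the mutant, against 81.8, 136 and 255 in wild type (log2 1.44 ± 0.25, adjusted p = 0.0329), with no overlap. spe-46 had 712, 1156 and 1642 in the mutant, against 247, 432 and 979 in wild type (1.41 ± 0.31, adjusted p = 0.0465). spe-4, a presenilin-family membrane protein of developing sperm, had 647, 900 and 1321 in the mutant, against 202, 336 and 824 in wild type (1.18 ± 0.26, adjusted p = 0.0469). spe-15, a myosin VI that sorts cell contents as sperm bud off, had 477, 723 and 825 in the mutant, against 210, 317 and 507 in wild type (1.08 ± 0.24, adjusted p = 0.0465). In the last 3 the highest 1 or 2 wild-type arrays reached into the mutant range.

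The level of the sperm genes varied between arrays of the same group. Their median log2 signal was 11.54 to 11.89 on mutant control arrays and 10.77 to 11.68 on mutant spg-7 RNAi arrays. In wild type it was 8.65, 11.65 and 11.28 on control replicates 1 to 3, and 9.35, 10.20 and 9.71 on spg-7 RNAi replicates 1 to 3. On control RNAi, wild-type replicates 2 and 3 were therefore near the mutant and replicate 1 was far below it. An exact two-sided permutation of genotype within RNAi treatment (400 arrangements, smallest possible p 0.005) gave a mean difference of 1.34 and p = 0.01, or 0.07 after adjustment over 14 such array measures. By the same exact permutation test, the log2 ratio of 3′ to 5′ actin control signal, a measure of RNA quality, averaged 0.52 ± 0.11 in the mutant and 0.68 ± 0.18 in wild type (SD, n = 6 each; p = 0.01, adjusted 0.07). The same ratio in the other control genes differed, mutant minus wild type, by 0.02 (catalase), 0.005 (Gapdh), 0.39 (gly14) and -0.33 (ubiquitin). Their unadjusted exact permutation p values were 0.965, 0.89, 0.545 and 0.135. The median log2 signal of all probe sets averaged 7.22 ± 0.06 in the mutant and 7.05 ± 0.14 in wild type (exact permutation p = 0.02, adjusted 0.0933). With arrays centred on their median, limma called 1 gene higher and 0 lower, and 1071 genes higher and 1337 lower had an unadjusted p under 0.05. The part of RNA quality in the calls was not tested.

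The 292 higher genes followed a like course over the arrays. Their median log2 signal, given as a description since they were chosen by it, was 8.01 to 8.97 on the mutant arrays and 6.54 to 8.05 on the wild-type arrays. The 2 highest wild-type arrays were control replicates 2 and 3 and the lowest mutant array was spg-7 replicate 2, as for the sperm genes. When the median of the sperm genes on each array was added to the model as a covariate, an alternative chosen after seeing the data, 0 genes were called in either direction, with a smallest adjusted p of 0.336 from limma. The median difference of the 292 was then 0.67 instead of 1.43, all 292 stayed positive, and 199 had an unadjusted p under 0.05. That of the 16 lower genes was -0.92 instead of -1.12, and all 16 had an unadjusted p under 0.05. This covariate itself differed by genotype, averaging 11.47 on the mutant and 10.14 on the wild-type arrays, and the list behind it included called genes. Adding it therefore takes up part of the genotype difference, so the lost calls are no test of a link to sperm genes.

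**Figure D3:**
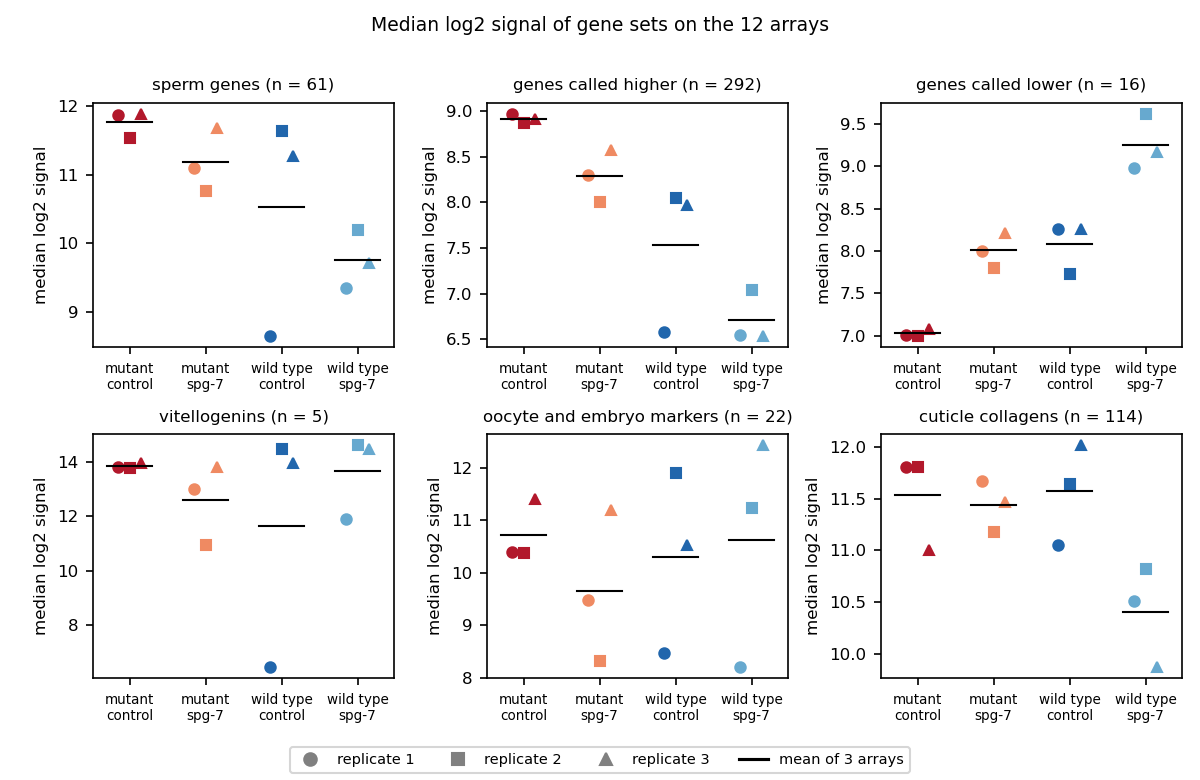
Median log2 signal on each of the 12 arrays for the called genes, the sperm genes and other gene sets, with 1 point per array, by genotype and RNAi treatment. The sperm genes and the 292 higher genes are lower on most wild-type arrays, and wild-type control replicates 2 and 3 come closest to the mutant arrays in both sets.

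Outside that list, alg-4 and pei-2 are called genes with a known role in sperm; they were picked after their values were seen, from no list, and carry no test of a theme. alg-4, an Argonaute of the small RNA pathway of spermatogenesis, had a signal of 764, 1263 and 2516 in the mutant, against 233, 352 and 951 in wild type (log2 1.60 ± 0.27, adjusted p = 0.0325). Its partner in that pathway, alg-3, had a difference of 1.27 ± 0.41 and was not called (adjusted p = 0.103). pei-2, a protein of a small RNA granule kept in sperm, had 435, 540 and 676 in the mutant, against 115, 210 and 441 in wild type (1.27 ± 0.28, adjusted p = 0.0469). Picked in the same way with no sperm role stated, the kinase genes kin-24 (1.42 ± 0.28, adjusted p = 0.0390), frk-1 (1.28 ± 0.30, adjusted p = 0.0473) and kin-5 (1.23 ± 0.30, adjusted p = 0.0473) were called, as were the tubulin genes tba-7 (1.18) and ben-1 (1.01).

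Markers of other stage-linked tissues gave no called gene among yolk, oocyte and germ line lists. Of 5 vitellogenins, the yolk proteins made by the intestine of adults, none was called, and the median difference was 2.11 under control RNAi and -0.82 under spg-7 RNAi. Wild-type control replicate 1 stood apart, with a vitellogenin median of 6.46 against 11.89 to 14.61 on the other wild-type arrays and 10.95 to 13.94 on the mutant arrays. Of 22 oocyte and embryo markers none was called (median -0.33), with medians of 0.45 on control and -1.11 on spg-7 RNAi. Of 20 other germ line genes none was called (median -0.09). Muscle, neuron and intestine lists had 1 of 25 (4%), 1 of 47 (2.13%) and 0 of 16 called, beside 2.97% of all genes. The called genes were tni-3, a troponin I of muscle (0.86 ± 0.16, adjusted p = 0.0390), and dat-1, the dopamine transporter (1.18 ± 0.29, adjusted p = 0.0473), and both rose. Second probe sets gave 1.15 ± 0.16 for tni-3 and 0.63 ± 0.30 for dat-1.

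No gene of the mitochondrial stress response lists was called for a constant difference, beside 2.97% called over all genes. The atfs-1 probe set read 386, 539 and 618 in the mutant, against 370, 520 and 996 in wild type, with overlapping groups (log2 -0.19 ± 0.19, adjusted p = 0.679). Where this probe set lies relative to the tm4525 lesion is not given in the sources used here, so its signal does not check the genotype labels. hsp-6, the mitochondrial HSP70 that serves as the usual reporter of the response, had 4404, 4862 and 6168 in the mutant, against 2521, 4854 and 7175 in wild type (0.16 ± 0.20, adjusted p = 0.752). hsp-60, its partner chaperonin, had 2417, 3007 and 3509 in the mutant, against 2377, 4894 and 5459 in wild type (-0.55 ± 0.18, adjusted p = 0.108). For hsp-60 the wild-type median was above every mutant array, and the lowest wild-type array was below all of them. Second probe sets gave -0.15 ± 0.20 for hsp-6, of the other sign, and -0.30 ± 0.20 for hsp-60.

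Of 12 regulators of the response, 17 mitochondrial chaperones and proteases, 17 import components and 15 genes of mitochondrial dynamics, none was called. Over all genes 2.97% were called, and lists this small would hold few calls or none at that share. Their median differences were -0.14, -0.12, -0.22 and -0.09. In the regulators, dve-1, a homeodomain protein that works with ATFS-1, had 0.64 ± 0.31 (adjusted p = 0.314), and hda-1, a histone deacetylase, -0.35 ± 0.26 (adjusted p = 0.562). Second probe sets gave 0.14 ± 0.27 for dve-1 and -0.97 ± 0.65 for hda-1, the latter on a dim probe set. Among the import genes 16 of 17 differences were negative, with ddp-1 at -0.55 ± 0.36 and timm-23, the inner membrane translocase subunit, at -0.50 ± 0.24. A second timm-23 probe set gave -0.42 ± 0.21. On control RNAi and spg-7 RNAi, timm-23 had differences of 0.04 and -1.03, and ddp-1 had -0.79 and -0.31. C34C12.8, of the chaperone list, read 1615, 1781 and 2123 in the mutant, against 1828, 2624 and 3567 in wild type (-0.52 ± 0.15, adjusted p = 0.0765).

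Ribosomal protein genes leaned below 0 without any call, beside 2.97% called over all genes. Of 57 mitochondrial ribosomal protein genes 53 had a negative difference, the median was -0.25, and 13 had an unadjusted p under 0.05. mrpl-40 had a signal of 510, 720 and 855 in the mutant, against 805, 950 and 1129 in wild type (-0.51 ± 0.16, adjusted p = 0.0968), and the groups overlapped. mrpl-51 had 1053, 1348 and 1818 in the mutant, against 1496, 1891 and 2491 in wild type (-0.49 ± 0.19, adjusted p = 0.174). Of 74 cytosolic ribosomal protein genes 73 were negative, with the same median of -0.25 and none at an unadjusted p under 0.05. Their median was -0.47 under control RNAi and -0.02 under spg-7 RNAi, against -0.26 and -0.30 for the mitochondrial list. Among the cytosolic genes rps-19 (-0.36 ± 0.22) and rpl-27 (-0.35 ± 0.16) had the largest differences. These sizes depend on the scaling between arrays. Centring each array on its median put the median of all genes at -0.21 and that of the mitochondrial ribosomal list at -0.42, while scaling to the hybridisation controls gave 0.15 and -0.06.

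Of 66 respiratory chain genes 1 rose (1.52%, beside 2.97% of all genes) and none fell (median -0.07). It was cyc-2.2, a cytochrome c gene, with a signal of 1602, 2435 and 3585 in the mutant, against 372, 724 and 2099 in wild type (1.46 ± 0.34, adjusted p = 0.0473); 2 wild-type arrays, control replicates 2 and 3, reached into the mutant range. Of 34 tricarboxylic acid cycle genes, 17 glycolytic genes and 33 proteasome genes none was called (medians -0.06, -0.17 and -0.03). Of 74 genes for desaturating, elongating or oxidising fatty acids 2 rose (2.7%, near the share of all genes). acdh-8, an acyl-CoA dehydrogenase, had 1516, 2893 and 4014 in the mutant, against 443, 784 and 2452 in wild type (1.51 ± 0.36, adjusted p = 0.0473), and elo-7, a fatty acid elongase, had 227, 418 and 567 in the mutant, against 92.3, 128 and 397 in wild type (1.26 ± 0.26, adjusted p = 0.0408).

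In several metabolic families at least 1 copy was well above 0 while at least 1 relative was not. These families were picked after the values were seen, and the difference between copies was not tested. cyc-2.1, the other cytochrome c gene, had a difference of -0.24 ± 0.20. The adenine nucleotide translocases, which exchange ADP and ATP across the inner membrane, split in the same way: ant-1.3 (1.34 ± 0.23, adjusted p = 0.0325) and ant-1.4 (1.15 ± 0.24, adjusted p = 0.0458) rose, and ant-1.1 had -0.12 ± 0.18 (adjusted p = 0.792). ant-1.3 stood at 1326, 2073 and 2621 in the mutant, against 397, 721 and 1466 in wild type, whereas ant-1.1 stood at 12067, 16568 and 18681 in the mutant, against 11816, 17714 and 22668 in wild type.

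In other families the larger difference was not called, except in the histones. pck-3, a phosphoenolpyruvate carboxykinase, had 1.67 ± 0.42 (adjusted p = 0.0530), beside -0.41 for pck-2 and -0.29 for pck-1. The phosphofructokinase pfk-1.2 had 1.34 ± 0.40 (adjusted p = 0.0809), beside 0.06 for pfk-1.1, the mitochondrial fission gene fis-1 had 1.46 ± 0.43 (adjusted p = 0.0820), beside -0.06 for fis-2, and the proteasome subunit rpn-6.2 had 0.74 ± 0.24 (adjusted p = 0.103), beside -0.23 for rpn-6.1. Among replacement histones H3.3, his-70 rose (786, 1325 and 1907 in the mutant, against 140, 277 and 1128 in wild type; 1.84 ± 0.37, adjusted p = 0.0390), and his-71 and his-72 had 0.21 and -0.35. It was the only called gene of 31 histone genes (3.23%, beside 2.97% of all genes). In his-70, as in acdh-8 and cyc-2.2, wild-type control replicates 2 and 3 reached into the mutant range.

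**Figure D4:**
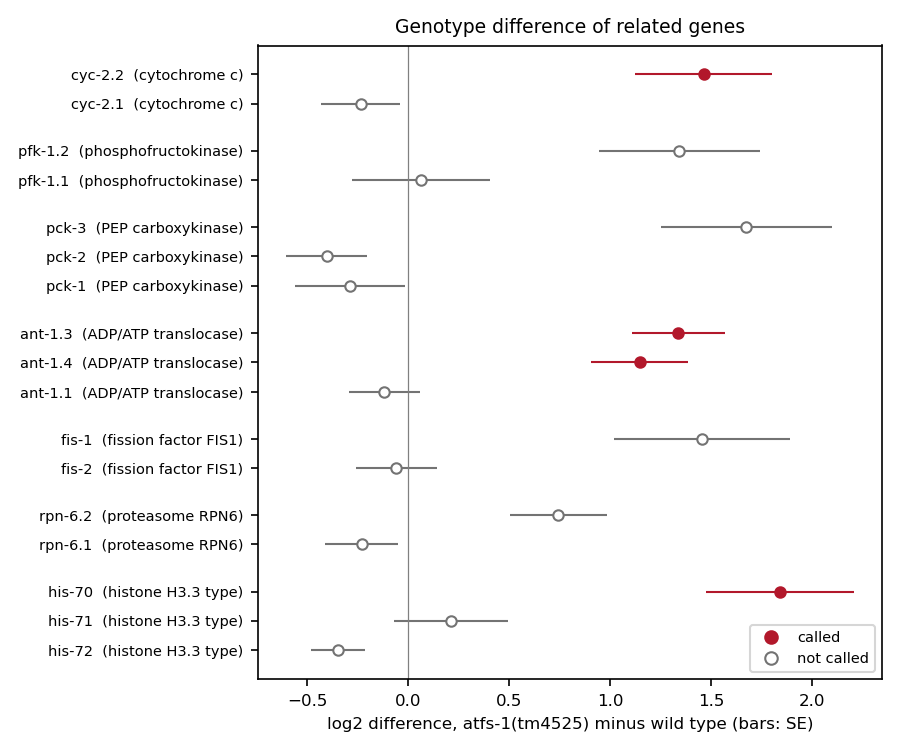
Log2 difference (mutant minus wild type) with its SE for related genes, grouped by family, with filled points for called genes. In each of the cytochrome c, phosphofructokinase, translocase, carboxykinase, fission, proteasome and histone families at least 1 copy lies well above 0 and at least 1 near or below it.

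Detoxification, stress and immunity lists held called shares from 0% to 7.14%, on both sides of the 2.97% of all genes. ugt-29 (1.12 ± 0.24, adjusted p = 0.0458) and ugt-43 were the 2 called of 45 glucuronosyltransferases (4.44%). gstk-2, a kappa-class glutathione transferase (1.01 ± 0.20, adjusted p = 0.0408), and gst-28 (0.84 ± 0.20, adjusted p = 0.0473) were the 2 of 28 in theirs (7.14%). gstk-2 had a signal of 137, 175 and 275 in the mutant, against 77.5, 91.3 and 109 in wild type, with no overlap. dhs-7, a short-chain dehydrogenase, rose in a list of 24 (4.17%), at 556, 659 and 1100 in the mutant against 152, 342 and 428 in wild type (1.36 ± 0.30, adjusted p = 0.0465). Of 41 cytochrome P450 genes, 31 ABC transporters, 26 oxidative stress genes, 19 genes of endoplasmic reticulum stress and 17 cytosolic heat shock genes, 1 was called, cyp-14A1, and it fell.

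sod-3, a mitochondrial manganese superoxide dismutase induced in many stress states, had 84.7, 108 and 200 in the mutant, against 152, 218 and 977 in wild type (-1.31 ± 0.34, adjusted p = 0.0591). The 3 wild-type spg-7 RNAi arrays, at 260, 692 and 977, were the highest of the 12. The cytosolic heat shock list had the lowest median of the stress lists, -0.34, with 15 of 17 differences negative and 6 of them at an unadjusted p under 0.05. Its members with the largest difference, hsp-16.41 (-1.39 ± 0.80, adjusted p = 0.426) and hsp-16.2 (-1.36 ± 0.62, adjusted p = 0.280), small heat shock proteins, had wide errors.

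C-type lectins, secreted or membrane proteins with a carbohydrate-binding fold, had 4 of 78 members called (5.13%, beside 2.97% of all genes), all higher, a median of 0.34 (beside -0.03) and 53 positive. clec-138 had a signal of 45.4, 460 and 818 in the mutant, against 9.63, 35.9 and 266 in wild type (2.27 ± 0.55, adjusted p = 0.0478), a dim probe set with overlapping groups. clec-79 had 299, 460 and 577 in the mutant, against 66.3, 135 and 394 in wild type (adjusted p = 0.0478), and clec-151 (adjusted p = 0.0473) and clec-73 (1.39 ± 0.33, adjusted p = 0.0473) were also called. The list's median was 0.61 under control RNAi and 0.01 under spg-7 RNAi. Of 56 immune effectors irg-1, an infection response gene, rose (1.16 ± 0.28, adjusted p = 0.0473) and was the only call (1.79%). Its signal was 286, 329 and 395 in the mutant, against 73.3, 138 and 346 in wild type.

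Of 102 F-box and related genes, substrate receptors of ubiquitin ligases in many cases, fbxa-178 (1.33 ± 0.26) and fbxa-202 (1.08 ± 0.24) rose and fbxc-43 fell. These calls made up 2.94% of the list, beside 2.97% of all genes. Of 111 nuclear hormone receptors 1 was called (0.901%), nhr-17, and it fell, and of 35 chemoreceptor-type receptors none was called. Of 114 cuticle collagens col-132 alone was called (0.877%), and of 48 hedgehog-related genes none. Both of these lists differed in sign between RNAi treatments, with collagen medians of -0.25 under control RNAi and 0.80 under spg-7 RNAi, and hedgehog-related medians of -0.46 and 0.88.

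The 16 genes lower in the mutant were not from 1 named family. F23F12.12 had a signal of 279, 518 and 650 in the mutant, against 855, 1446 and 2118 in wild type, with no overlap (log2 -1.57 ± 0.26, adjusted p = 0.0313). cku-70, the Ku70 subunit that binds DNA ends for end joining, had 120, 244 and 347 in the mutant, against 344, 472 and 763 in wild type, where the ranges met by a few units (-1.13 ± 0.18, adjusted p = 0.0313). inx-3, an innexin that forms gap junctions, had 150, 258 and 342 in the mutant, against 339, 516 and 1161 in wild type (-1.25 ± 0.28, adjusted p = 0.0473). A second inx-3 probe set gave -1.08 ± 0.31.

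The other lower genes without overlap had smaller differences. vars-1, a valyl-tRNA synthetase, had 464, 503 and 585 in the mutant, against 616, 869 and 1124 in wild type (-0.71 ± 0.16, adjusted p = 0.0473). sws-1, a SWIM-domain partner of RAD-51 paralogs in homologous recombination, had 68.7, 78.9 and 106 in the mutant, against 124, 141 and 161 in wild type (-0.79 ± 0.18, adjusted p = 0.0473). The same held for slc-9B.1, a sodium-proton exchanger (-0.86 ± 0.21), fbxc-43 (-0.78 ± 0.18), R12E2.11 (-0.64 ± 0.15) and metl-9 (-0.63 ± 0.15). F15E6.4 (-1.52 ± 0.29, adjusted p = 0.0390), nhr-17 (-1.11 ± 0.27), lin-15B (-1.46), F59A7.2 (-1.29), C09E7.4 (-1.12), suco-1 (-0.68) and cyp-14A1 complete the 16.

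The model gives 1 difference for both RNAi treatments, so each gene was also fitted within a treatment. The 292 higher genes had a median difference of 1.33 under control RNAi and 1.54 under spg-7 RNAi, and all were positive on both. The 16 lower genes had -0.78 under control RNAi and -1.18 under spg-7 RNAi. Both sets were called on the average of these 2 differences, so a shared sign on both is largely set by that choice. No gene was called for the interaction of genotype and RNAi (647 had an unadjusted p under 0.05, and the smallest adjusted p from limma was 0.210). With 3 arrays against 3, the control RNAi arrays alone called 0 genes in limma (824 at an unadjusted p under 0.05) and the spg-7 RNAi arrays alone called 12 (0.116%), 8 higher and 4 lower.

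The 12 genes, named here after their values were seen, show both patterns. K02B12.6 had differences of 2.52 on control and 4.30 on spg-7 RNAi, Y39B6A.9 2.85 and 3.65, and F19H6.6 1.88 and 2.58. By contrast cyp-14A4, a cytochrome P450, had -0.40 on control and -4.29 on spg-7 RNAi, and inx-9, an innexin, 0.17 and -2.47. cyp-14A1 was called over all 12 arrays with -0.50 on control and -2.56 on spg-7 RNAi, so most of its difference came from the spg-7 RNAi arrays. Its signal was 61.9, 203 and 567 in mutant worms, against 73.1, 1039 and 2911 in wild-type worms (-1.53 ± 0.36, adjusted p = 0.0473). The interaction was not called for it or for any other gene.

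The 2 treatments share no arrays, so their differences can be set side by side. Across all 10385 genes the control RNAi and spg-7 RNAi differences had a Pearson's r of 0.34 and a Spearman's rho of 0.23, a description over genes that share libraries and are not independent. Of the genes at an unadjusted p under 0.01 on control RNAi, 107 higher and 12 lower, 88 (73.9%) had the same sign on spg-7 RNAi, 79 of the higher and 9 of the lower ones. Of 759 such genes on spg-7 RNAi, 587 (77.3%) had the same sign on control RNAi, 545 of the 679 higher ones but 42 of the 80 lower ones. Over all genes the share was 57.9%.

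**Figure D5:**
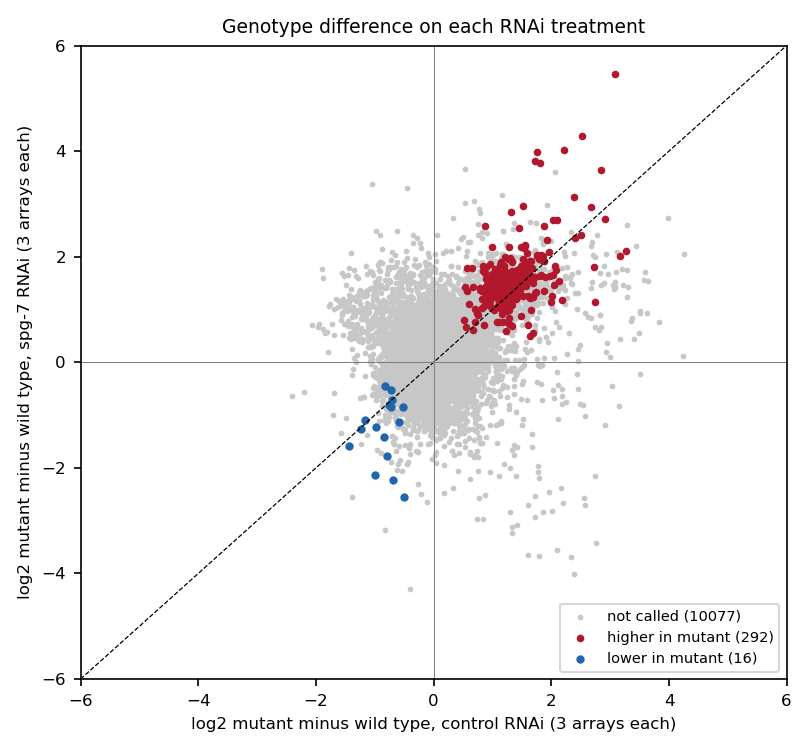
Log2 difference (mutant minus wild type) of each gene on control RNAi (horizontal axis) against that on spg-7 RNAi (vertical axis), with called genes coloured by direction. The 292 higher genes lie in the upper right, above 0 on both axes, and the 16 lower genes below 0 on both. Called genes were chosen on both treatments together, which favours a shared sign.

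The higher genes were unevenly placed in the genome. On the X chromosome 5 of 1379 tested genes (0.363%) rose and 6 fell, against 285 of 8976 (3.18%) and 10 on the autosomes. Chromosome IV had the highest share of higher genes, 4.64% of 1788. Of the 61 sperm genes 0 lie on X, 19 on IV and 15 on II, and genes expressed in sperm are known to be rare on the worm X chromosome. Any link between the placement of the higher genes and that of the sperm genes was not tested. The 5 higher genes on X were F19H6.6, R01E6.5, F56C3.8, adt-3 and ser-7, and the 6 lower ones were inx-3, slc-9B.1, metl-9, cyp-14A1, lin-15B and nhr-17. Around atfs-1 on chromosome V, 4 of the 50 nearest tested genes (8%) and 9 of the nearest 200 (4.5%) were called, all higher, beside 2.97% of all genes.

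Most of the higher genes had no gene name. Of the 292, 206 (70.5%) carried only a sequence name, against 36.5% of the tested genes and 5 of the 16 lower genes (31.2%). By the stem of the gene name, 12 families had more than 1 higher member, beside 2.81% of all tested genes. Families were listed for that number, so in a small family the share exceeds 2.81% by that choice. They were ant (2 of 3), irld (3 of 6), ptp (2 of 7), wht (2 of 9), dhhc (2 of 10), oac (2 of 11), spe (4 of 24), kin (2 of 18), ttr (2 of 32, 6.25%), clec (4 of 78, 5.13%), ugt (2 of 45, 4.44%) and fbxa (2 of 56, 3.57%).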

How the data were processed

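Whole-worm total RNA was converted to biotin-labelled cRNA for Affymetrix C. elegans arrays. The authors deposited linear signal intensities per probe set; the submitters' processing notes name MAS5, and its settings are not given in the sources used here. The trimmed mean was 500.1 to 500.2 on every array, so no further scaling was applied. Of 22625 probe sets, 77 controls were set aside, and 20766 of the others had 1 gene name in the platform annotation (887 several, 895 none). Of the gene IDs, 20701 were found in the RefSeq gene table. Intensities were floored at 1 (0.509% of values) and taken to log2. The lowest 40% by mean were left out, below a signal of 76.0. Genes measured through probe sets that can bind several transcripts numbered 3250 (type s) and 463 (type x).

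A linear model of genotype plus RNAi was fitted with limma 3.58.1 in R 4.3.3, with a variance trend (9 residual and 3.64 prior degrees of freedom). All adjusted p values for genes are from limma. Array measures were compared by exact permutation. The labels call the replicates biological without saying what was separate, so p values cover the spread between these samples. The members and the 34 gene lists were chosen with earlier results of these data known. The genes named were atfs-1, spg-7, hsp-6 and hsp-60; up to 15 called genes per direction with the largest difference and no overlap; the 5 per direction with the smallest adjusted p; and per list up to 4 called members, or 2 not called where none was. Others are said to be chosen after their values were seen, or are given where a count of them is. Calling was tested on simulated data whose noise was independent between genes and arrays. That test does not cover variation that genes share on an array. Alternatives changed scaling, filter, probe set choice, model, threshold and arrays. Plots used matplotlib 3.10.9 under Python 3.11.15.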

Additional observations from a re-analysis of the deposited data

Results flagged for a closer look

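In 252 checks of named genes and list medians within a genotype, 7 values stood far from the other 5 arrays. Each check pooled both RNAi treatments, and the checks are not independent, so the nominal rate of 1 in 20 is no measure of chance here. On wild-type control replicate 1 the log2 signal of vit-2 was 2.31 and that of vit-5 was 5.80, both yolk protein genes, and the median of the vitellogenins was 6.46. On mutant spg-7 RNAi replicate 2 the vitellogenin median was 10.95, below the other mutant arrays. pept-1, an intestinal peptide transporter, stood at 8.73 on wild-type spg-7 RNAi replicate 3, below the other wild-type arrays. pho-1, an intestinal acid phosphatase, stood at 10.59 on wild-type spg-7 RNAi replicate 1, above the others. The glycolysis list had a median of 11.17 on wild-type control replicate 2, below the others.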

How the results depend on the processing

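Counts of called genes depended on many choices. The 292 higher and 16 lower genes kept their sign in every alternative in which they were tested. They were chosen on these same arrays, so the kept sign is no separate support. As higher and lower genes, preferring plain probe sets called 287 and 15, no variance trend 332 and 24, and robust variances 292 and 15, all close to the 292 and 16 reported. By contrast, quantile normalisation called 19 and 3, centring arrays on their median 1 and 0, and scaling to the hybridisation controls 0 and 0. At an unadjusted p under 0.05 these last 2 settings gave 1071 higher and 1337 lower, and 1803 higher and 40 lower. Adding 32 before log2 called 462 and 28 (and 1 gene for the interaction), no filter 35 and 5, and leaving out the lowest 60% 14 and 2. Array weights, which stopped before convergence, called 571 and 76 (interaction 96), 1 mean per group 88 and 10, the oocyte marker covariate 1013 and 144, the vitellogenin covariate 993 and 78, an adjusted p under 0.01 0 and 0, and a minimum of 2-fold 274 and 9. Leaving out 1 array gave 0 to 630 higher, 0 to 34 lower and 0 to 1 for the interaction. The counts without 1 array were 90 and 7 without mutant control replicate 3, 16 and 0 without mutant spg-7 replicate 2, 380 and 17, 630 and 34, and 411 and 15 without wild-type control replicates 1, 2 and 3, and 7 and 0, and 3 and 0 without wild-type spg-7 replicates 2 and 3. Leaving out both wild-type control replicate 1 and wild-type spg-7 replicate 3 called 71 and 3, and the sperm gene covariate, chosen after seeing the data, 0 and 0 (interaction 8). The cause of these changes was not tested.

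Replicate numbers were not taken to pair the arrays: over 18 same-numbered pairs r ran from -0.66 to 0.66 with a median of 0.12, 11 pairs were over 0.1, and 6 of 12 arrays correlated best with their own number. With the number as a replicate block 242 genes were higher and 9 lower, among them 204 of the 292 and 8 of the 16. slc-9B.1, sws-1, fbxc-43, R12E2.11, metl-9, cyp-14A1, gst-28, irg-1, clec-151, clec-73 and spe-4 then had an adjusted p of 0.0512 to 0.0574 from limma. Among single genes, hsp-6 stood at -0.0139 with arrays centred on their median, and atf-6 at 0.22 and srlf-2 at -0.0133 with the sperm gene covariate. vit-2 stood at -0.0449 with array weights, at -0.59 (without wild-type control replicate 1) to 1.77 over the fits without 1 array, -0.45 without that array and wild-type spg-7 replicate 3, and -3.15 with the sperm gene covariate; vit-5 stood at -0.17, -0.72 to 1.37, -0.40 and -3.24. Signal near background limits the size of differences in dim genes.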
